A study of Mus musculus with 10 samples.

Results

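The connexin genes Gja1, Gja3, Gja4, Gja5, Gjc1, Gjb2 and Gjb6 were followed in hearts of male mouse embryos at embryonic day 13.5. They were chosen by gene symbol, and all 7 have a row among the 23195 genes of the deposited table, of which 16973 are protein-coding. Polyadenylated RNA was sequenced from 5 wild type hearts and 5 Nos1ap null hearts, all of strain C57BL6/J. Nos1ap encodes an adaptor of neuronal nitric oxide synthase, and variation near the human gene is associated with the QT interval. In the study's methods the null embryos are homozygous for the constitutive tm1d allele, in which a coding exon was removed in every tissue by crossing with CMV-Cre mice, and the line was kept on C57BL/6J by backcrossing. Nothing in the labels says which embryos were littermates.

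Connexins form gap junctions. A hexamer of connexins makes a hemichannel, and the hemichannels of adjoining cells dock to a channel that passes ions and small molecules, which couples cardiomyocytes electrically. Gja1 (connexin 43) is the main connexin of working ventricular muscle. Gja5 (connexin 40) marks atrial and trabecular muscle, the ventricular conduction system and arterial endothelium. Gjc1 (connexin 45) is the connexin of the early heart tube and the nodes, and Gja4 (connexin 37) is an endothelial connexin of arteries. Gja3 (connexin 46) is best known from the lens, and Gjb2 and Gjb6 (connexins 26 and 30) from the inner ear and epidermis.

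The promoters of 3 members are given because they span the range of levels described next: Gja1 and Gja5 were the most abundant connexins and Gjb2 was barely detected. Each run is the 250 bases before the RefSeq start site on GRCm38.p6, read 5′ to 3′ on the gene's own strand, with CG dinucleotides in capitals. Gja1 lies at chr10:56377050-56377299 on the plus strand, Gja5 at chr3:97032152-97032401 on the plus strand and Gjb2 at chr14:57104703-57104952 on the minus strand.
Gja1: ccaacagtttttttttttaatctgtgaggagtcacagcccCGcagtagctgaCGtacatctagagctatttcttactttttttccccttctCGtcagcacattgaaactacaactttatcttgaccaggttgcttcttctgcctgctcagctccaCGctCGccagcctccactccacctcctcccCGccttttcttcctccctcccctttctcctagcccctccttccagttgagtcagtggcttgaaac
Gja5: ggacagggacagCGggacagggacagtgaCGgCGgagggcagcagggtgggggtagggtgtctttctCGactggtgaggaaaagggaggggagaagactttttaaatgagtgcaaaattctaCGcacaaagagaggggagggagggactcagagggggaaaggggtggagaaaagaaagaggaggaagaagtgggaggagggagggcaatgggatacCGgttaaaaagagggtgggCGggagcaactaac
Gjb2: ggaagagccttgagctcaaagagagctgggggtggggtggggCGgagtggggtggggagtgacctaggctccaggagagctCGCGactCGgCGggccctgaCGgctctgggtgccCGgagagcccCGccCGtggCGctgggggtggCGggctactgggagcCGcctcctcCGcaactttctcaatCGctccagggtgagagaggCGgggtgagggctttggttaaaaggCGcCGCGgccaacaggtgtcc
In the windows of 300 bases that add 50 bases after the start site, Gja1 held 8 CG dinucleotides, Gja5 7 and Gjb2 27. The median over 32851 RefSeq windows of this length was 7. Abundance did not follow CG content among these genes: the barely detected Gjb2 had more CG dinucleotides than 84.5% of windows, whereas the value was 51.4% for Gja1 and 47.9% for Gja5. Gja4 held 16, Gjb6 6 and the start sites of Gja3 29 and 36. Short motifs were searched on both strands, and none of them contains another. The GC box (GGGCGG) was found in the windows of Gja5, Gja4, Gjb2 and the first of Gja3, and in 35.7% of all windows. A GATA motif, searched as AGATAA, was found in the window of Gja1 and in 11.2% of all windows. The TATA box, searched as TATAAA, was found in the first window of Gja3 and in 13.6% of all windows. A T-box motif, searched as GGTGTG, was in none of the 7 windows of these members and in 19.0% of all. Such matches describe the letters only.

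The values are normalized counts: read pairs assigned to a gene, divided by the size factor of the library. The table holds the mean of each genotype. For means under 1000, the whole counts of the single libraries could be worked back from the printed digits for 99.7% of genes in wild type and 99.6% in Nos1ap null. Recovered libraries are numbered within a genotype from the largest size factor down, and this order does not tie a library to a labelled replicate. The libraries held an estimated 11328000 to 14023000 read pairs on genes. Gja3, Gja4, Gjc1, Gjb2 and Gjb6 have values for single libraries. Gja1 and Gja5 are too abundant for this, so they are given as the authors' group means with no spread and no test. Nos1ap itself had counts of 124 to 169 in the wild type libraries and 29 to 47 in the null libraries, which did not overlap (log2 fold change -1.83, SE 0.12, adjusted p = 3.16e-08 by limma). Wild type library 3 stood apart: it held 139 counts of Sox10, a glial and neural crest gene, and summed normalized counts of the settled neuronal and glial genes were 745.1 there against at most 205.2 in the other wild type libraries and 150.8 to 189.9 in the null libraries.

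Compared per kilobase of exon, Gja1 and Gja5 were the leading connexins of the E13.5 heart. By the authors' group means, Gja1 stood at 5070 in the wild type hearts and at 5147 in the null hearts, in normalized counts. For Gja5 these means were 2486 and 2576. Over the union of a gene's exons, which is 10257 bases for Gja1 and 5746 for Gja5, the wild type levels were 494 and 433 normalized counts per kilobase. Gja1 was thus above 94.1% of protein-coding genes per kilobase, and Gja5 above 93.2%. Gja4 followed at 193 and Gjc1 at 185, and Gja3 at 24.2. Of the pannexins, which form channels in single membranes and share the topology of connexins, Panx2 was at 46.6, above Gja3. Panx1 was at 28.0 and Panx3 at 0.173. The wild type libraries spanned 23.12 to 30.15 per kilobase for Panx1 and 21.59 to 26.19 for Gja3, and these ranges overlapped.

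**Figure D1:**
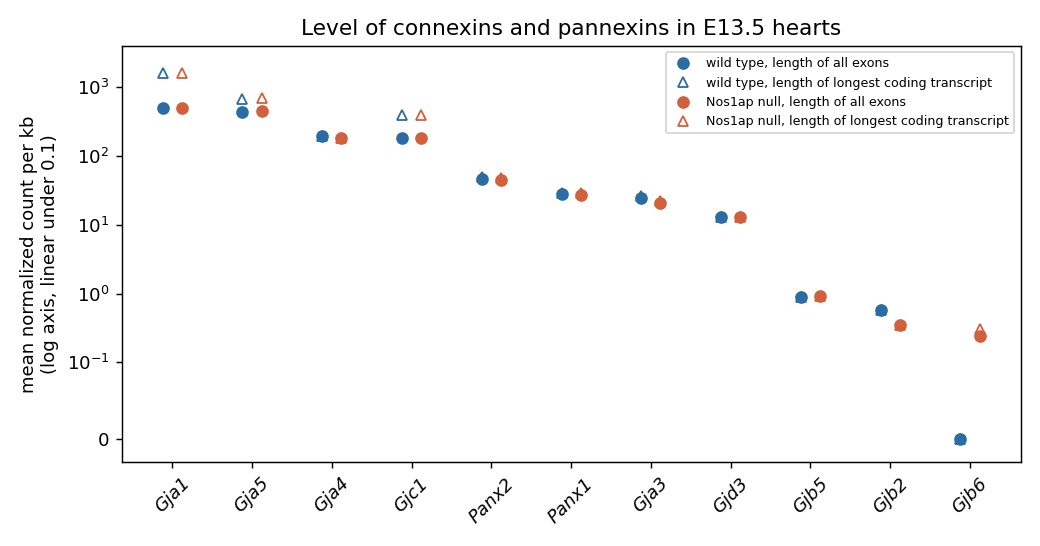
Mean normalized count per kilobase (log axis, linear under 0.1) of connexins and pannexins, wild type in blue and Nos1ap null in orange; circles use the length of all exons and triangles the longest protein-coding transcript. Gja1 and Gja5 lead in both genotypes, and Gjb2 and Gjb6 lie under 1.

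The length used sets part of this order. With the longest protein-coding transcript in place of all exons, Gja1 reached 1593 normalized counts per kilobase in wild type, Gja5 678 and Gjc1 400, while Gja4 stayed at 193. The ratio of Gja1 to Gja5 then rose from 1.14 to 2.35, and that of Gjc1 to Gja4 moved from 0.957 to 2.07, so Gjc1 and Gja4 changed places. Over all exons, the wild type libraries spanned 161.2 to 205.1 per kilobase for Gjc1 and 181.0 to 211.7 for Gja4, and these neighbours did not differ beyond their spread. Over the longest transcript Gjc1 spanned 348.5 to 443.4 and no longer overlapped Gja4. The step from Gja4 down to Gja3 was 7.98-fold over all exons and 7.45-fold over the longest transcript. Gja1 made up 36.7% of the summed connexin level per kilobase in wild type and 37.1% in Nos1ap null, and Gja5 32.1% and 33.2%. Over the longest transcript these shares were 54.8% and 55.1% for Gja1 and 23.3% and 23.9% for Gja5.

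Neither abundant connexin stood out between the genotypes. The ratio of the Nos1ap null mean to the wild type mean was 1.015 for Gja1 (log2 ratio 0.02) and 1.036 for Gja5 (log2 ratio 0.05). The median absolute log2 ratio was 0.03 over the 2622 protein-coding genes whose mean reached 1000, and 38.7% of them had a smaller one than Gja1 and 76.5% a smaller one than Gja5. In whole hearts, fewer cells of a type and less RNA per cell cannot be told apart.

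Gjc1 counts in wild type were 927, 1060, 877, 864 and 974 in libraries 1 to 5, which are 806.4, 1026, 892.7, 891.6 and 1008 after normalization. In Nos1ap null they were 1011, 795, 984, 855 and 823, or 909.9, 799.4, 992.1, 918.2 and 896.3 after normalization. The ranges overlapped over most of their length. Gjc1 averaged 925 ± 91.2 (SD, n = 5) in wild type and 903 ± 68.9 (SD, n = 5) in Nos1ap null. The log2 fold change was -0.03 (SE 0.07, 95% interval -0.18 to 0.11, adjusted p = 0.999 by limma), and its sign turned when wild type library 2 or 5 or null library 2 was left out.

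Gja4, the arterial endothelial connexin, had counts of 410, 315, 307, 327 and 306 in wild type, or 356.7, 304.9, 312.5, 337.5 and 316.6 after normalization. In Nos1ap null the counts were 346, 332, 322, 254 and 267, or 311.4, 333.8, 324.6, 272.8 and 290.8 after normalization. The highest library was a wild type one and the lowest a null one, but the middle of both groups overlapped. Means were 326 ± 21.1 (SD, n = 5) and 307 ± 24.9 (SD, n = 5), with a log2 fold change of -0.09 (SE 0.07, 95% interval -0.23 to 0.05, adjusted p = 0.999 by limma). It was -0.05 without null library 4 and also -0.05 without wild type library 1. Of the 8 arterial endothelial genes looked at beside it, 5 could be tested and 0 were called, and the log2 ratio of means ran from -0.14 for Cxcr4, a chemokine receptor, to 0.10 for Sox17, an endothelial transcription factor.

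Gja3 showed the widest gap of the tested members. Its counts were 85, 71, 73, 62 and 75 in wild type and 68, 63, 67, 64 and 47 in Nos1ap null. After normalization they were 73.95, 68.73, 74.31, 63.98 and 77.59 against 61.2, 63.35, 67.55, 68.73 and 51.19. Null library 5 was the lowest of all, and the groups still overlapped between 63.98 and 68.73. Means were 71.7 ± 5.36 (SD, n = 5) and 62.4 ± 6.98 (SD, n = 5). The log2 fold change was -0.20 (SE 0.12, 95% interval -0.45 to 0.04, unadjusted p = 0.101 and adjusted p = 0.999 by limma), and it was -0.13 without null library 5. Counting error alone gives a coefficient of variation of 11.7% per library at this depth in wild type.

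**Figure D2:**
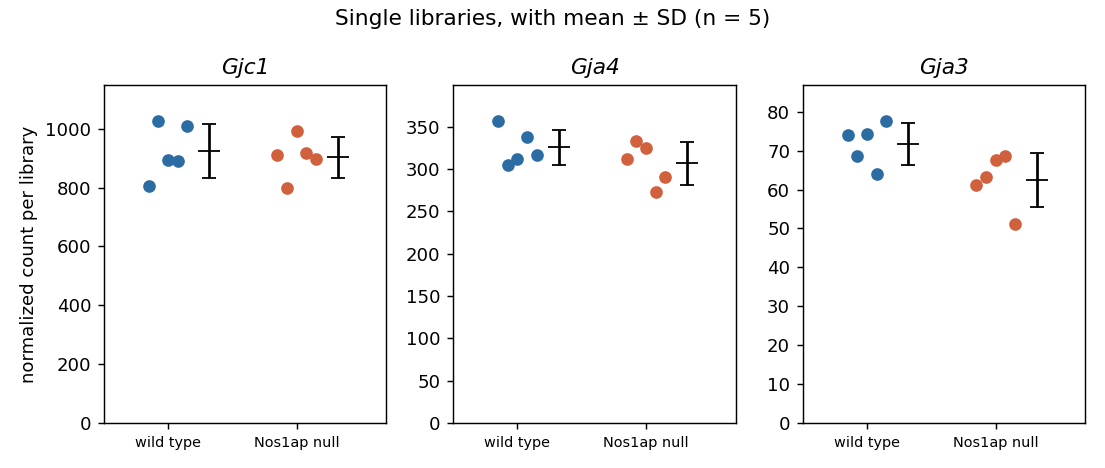
Normalized counts of Gjc1, Gja4 and Gja3 in each library, with the mean ± SD (n = 5) of each genotype in black. In all 3 genes the libraries of the genotypes overlap, and Gja3 has its lowest value, 51.19, in a null library.

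None of the 3 tested members was called. In the same fit 3 of 10527 protein-coding genes, 0.0285%, had an adjusted p under 0.05, and 355, 3.37%, had an unadjusted p under 0.05, which 0 of the 3 members had. The ranges of the libraries did not overlap for 0.779% of genes and for 0 of the 3 members. The called genes were Nos1ap, Mt2, a metallothionein (log2 fold change 1.2, SE 0.18, adjusted p = 0.00777 by limma), and the predicted gene Gm7694 (log2 fold change -1.35, SE 0.07, adjusted p = 5.44e-10 by limma). Mt2 and Gm7694 are named after their values were seen. Without wild type library 3 the log2 fold change was -0.19 for Gja3, -0.10 for Gja4 and -0.04 for Gjc1, close to the values with it.

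**Figure D3:**
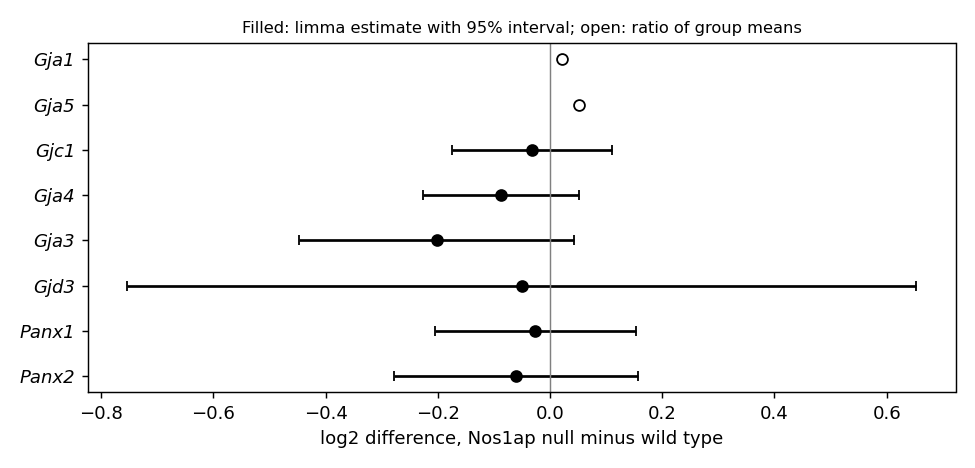
Log2 difference between Nos1ap null and wild type; filled points are limma estimates with 95% intervals, and open points are ratios of the authors' group means with no interval. Every interval drawn spans 0.

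Gjb2 and Gjb6 were at the edge of detection. Gjb2 had 1, 2, 2, 1 and 1 counts in the wild type libraries and 1, 0, 0, 2 and 1 in the null libraries, which makes 7 against 4. The ratio was 0.589, with an exact 95% counting interval of 0.126 to 2.32. Gjb6 had 0 counts in all wild type libraries, which allows a group mean of up to 0.588 normalized counts (3 counts over the group), and 3 counts in the null libraries. A difference was not detectable at this depth in either gene, and both fell under the mean of 10 needed for the test. These intervals and limits cover counting error only.

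Both genes share a cluster with Gja3. On GRCm38, Gja3 (chr14:57034460-57058100), Gjb2 (chr14:57098600-57104702) and Gjb6 (chr14:57123303-57133611) lie on the minus strand within 99.2 kb, and in each the coding sequence is in 1 exon. Gja3 was at 24.2 normalized counts per kilobase in wild type, against 0.574 for Gjb2, whose 5′ end lies 46.6 kb away. A like contrast was seen between Gja4 (chr4:127311421-127314039), which was at 193, and Gjb5 (chr4:127354809-127358181), which was at 0.896 and lies within the same 46.8 kb. In both places an alpha connexin was well detected beside a beta connexin under 1 normalized count per kilobase, in both genotypes.

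**Figure D4:**
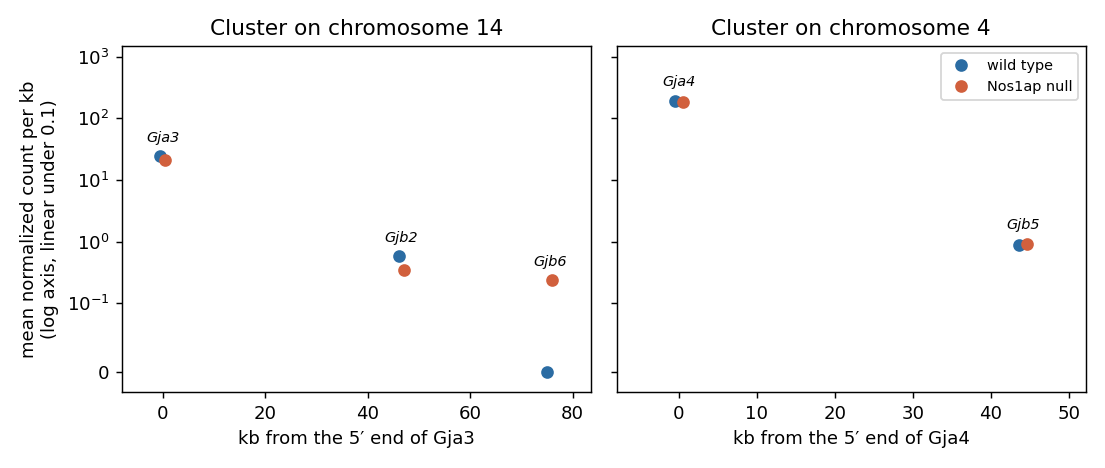
Mean normalized count per kilobase (log axis, linear under 0.1) against the distance in kilobases from the 5′ end of Gja3 (left) and Gja4 (right), wild type in blue and Nos1ap null in orange. Gja3 and Gja4 lie above 20 and Gjb2, Gjb6 and Gjb5 under 1.

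Gja1 lies at chr10:56377330-56402513 on the plus strand and Gjc1 at chr11:102799579-102819700 on the minus strand. Gja5 (chr3:96904693-97077416, plus strand) spans other genes on the opposite strand, and the authors' counting used the strand. Of the transcripts of the members, only the longest one of Gja5 shared stretches of 100 bases with another gene, Zfp697, over 18.5% of its stretches, and the counting could split reads of Gja5 there.

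The other connexins were low. Gjd3 had from 8 to 17 counts in single wild type hearts and from 5 to 15 in null hearts. It had a log2 fold change of -0.05 (SE 0.34, 95% interval -0.75 to 0.65, adjusted p = 0.999 by limma), an interval too wide to exclude a sizeable change. Gja6, Gja10, Gjb5, Gjc3, Gjd2 and Gjd4 had group means between 0.201 and 1.60 normalized counts. Of the pannexins, Panx1 averaged 169 ± 17.6 (SD, n = 5) in wild type and 165 ± 11.3 (SD, n = 5) in Nos1ap null, and Panx2 168 ± 15.2 and 162 ± 25.8.

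The scaffold, transport and kinase genes that act with connexins were read beside them. Of 12 such genes, 5 could be tested and 0 were called, and the median log2 ratio of the group means was 0.02. It ran from -0.07 for Prkce, a protein kinase C, to 0.11 for Tjp1 (ZO-1), the scaffold that binds the tail of connexin 43. Of 8 intercalated disc genes 1 could be tested and was not called, and the median was 0.01. Among the disc genes Ank3, ankyrin G, was lowest at -0.03 and Dsg2, a desmosomal cadherin, highest at 0.18, and Cdh2, N-cadherin, was at 0.10. Across the protein-coding genes whose mean reached 1000, the absolute log2 ratio had its 95th percentile at 0.0951. Tjp1, Cdh2 and Dsg2 lay above it, and Gja1, Gja5 and the other genes of both lists with such a mean lay below. Tjp1 and Dsg2 were the highest of their lists. Genes of other lists also lay above it, such as Ryr2 at 0.15 and Kdr at 0.14. Tjp1, Cdh2 and Dsg2 have no values for single libraries in both genotypes and no test. Across the 13299 protein-coding genes whose mean reached 10 the median was -0.00093 and the median absolute value 0.05.

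Transcription factors that act on cardiac connexin genes were compared in the same way. Of 12 factors, 5 could be tested and 0 were called, and the median log2 ratio of means over all 12 was 0.03, with 7 higher and 5 lower in Nos1ap null. Tbx20, a T-box factor of the heart, had a log2 ratio of means of 0.10 at a mean over 1000. This is above the 95th percentile of such genes, and Tbx20 has no test. Irx3, which acts on Gja1 and Gja5 in the conduction system, had a log2 fold change of -0.13 (SE 0.06, unadjusted p = 0.0337, adjusted p = 0.999 by limma). Shox2, a factor of the sinus node, had the highest ratio, with a log2 fold change of 0.20 (SE 0.40, adjusted p = 0.999 by limma). Of 8 trabecular and conduction genes 5 could be tested and 0 were called. Among them Hcn4, the pacemaker channel, had a log2 fold change of 0.15 (SE 0.06, unadjusted p = 0.0179, adjusted p = 0.999 by limma). Cntn2, a conduction system and neuronal gene, was lower by the group means (log2 ratio -3.76), and 165 of its 176 wild type counts lay in library 3.

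The markers of other cell types were also read. Of the 7 neuronal and glial genes whose mean reached 10, 7 were lower in Nos1ap null by the group means and 0 of the 4 tested were called. The median log2 ratio of means over all protein-coding genes whose mean reached 10 was -0.00093. In wild type library 3 the 5 settled genes of this list summed to 745.1 normalized counts. They summed to at most 205.2 in the other wild type libraries and to 150.8 to 189.9 in the null libraries, which overlap. Of 8 endothelial genes 2 could be tested and 0 were called, and the log2 ratio of means ran from -0.03 for Pecam1 to 0.14 for Kdr, with a median of 0.03. Of 6 epicardial genes 5 could be tested and 0 were called, and the lowest log2 ratio of means was -0.07 for Aldh1a2, which makes retinoic acid. Wt1, an epicardial transcription factor, had the highest, with a log2 fold change of 0.18 (SE 0.06, unadjusted p = 0.011, adjusted p = 0.999 by limma). The 4 smooth muscle genes had a median log2 ratio of -0.06, and Myh11, a smooth muscle myosin, had the lowest, -0.93, with 205.6 normalized counts in wild type library 3 against at most 69.14 in the other wild type libraries. The highest was -0.00106 for Cnn1, calponin. The 5 mesenchymal genes had a median of -0.05, from -0.10 for Col1a1 to 0.04 for Postn. Of 6 lung and gut epithelial genes with a row 3 could be tested and 0 were called. Among the 3 whose mean reached 10, Krt8, Krt18 and Krt19, the log2 ratio of means ran from -0.05 for Krt19 to 0.00193 for Krt18. Epcam, Cdh1 and Cldn6 had means under 10 and no test, and all were lower in Nos1ap null by the group means. The log2 ratio was -0.84 for Epcam and -1.41 for Cdh1, and Cldn6 had a null mean of 0. Of 5 fetal liver genes with a row Afp alone could be tested and was not called (log2 fold change -0.74, SE 0.80, adjusted p = 0.999 by limma). Normalized counts of the 5 summed to 24.13 to 39.21 in the null libraries. In the wild type libraries these sums ran from 20.36, in library 3, to 82.28. Of the epidermis list, which marks a tissue where Gjb2 and Gjb6 are abundant, 3 of 6 genes could be tested and 0 were called. In wild type the keratinocyte genes Krt5, Krt15, Trp63 and Krt14 had group means of 1.23, 2.62, 4.01 and 14.6 normalized counts, and among the 3 genes of the list whose mean reached 10 the log2 ratio ran from -0.32 for Krt14 to 0.03 for Sfn. Perp, which is not restricted to epidermis, made up 905 of the list's summed wild type mean of 943.7. The part of these markers in the connexin values was not tested.

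The tissue label held by its markers. The cardiomyocyte genes looked at, from Tnnt2 to Ryr2, had group means of 3163 to 129864 normalized counts, with log2 ratios from -0.02 for Myl2 to 0.15 for Ryr2.

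Over the 10 libraries, the genes whose log2 normalized count most resembled a member were Fam53c (Pearson's r 0.976) and Usp39 (0.925) for Gja3, Mina (0.953) and U2af1 (0.925) for Gja4, and Jmjd1c (0.945) and Adamts8 (0.944) for Gjc1. They are the highest of 8614 protein-coding genes searched, which have a mean of at least 50 and recovered counts in both genotypes. Genes with a group mean of 1000 or more, Gja1 and Gja5 among them, were therefore not searched. The points share library and depth, so these correlations are a description with no test.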

How the data were processed

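RNA was sequenced from 10 hearts, 5 of each genotype. Per the labels and the study's methods, reads were trimmed with Trimmomatic 0.36, aligned with STAR within RSEM 1.2.31 in strand-aware mode to GRCm38 with GENCODE M10, and normalized with DESeq 1.24.0. The deposited signal is the mean over a genotype, calculated by the authors, of counts divided by each library's size factor; it is not per length. The authors' fold change and p-value columns were not used. The table holds 0 columns of single samples.

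A group mean is a sum of whole counts, each times the step that 1 read adds in its library. The steps were read from the smallest means, and for means under 1000 the whole counts nearest to equal expression were found by lattice search. A set was kept if the expected number of equally near sets was no more than 0.05; for Gjc1 in wild type it was 0.0229. Recovered counts were not treated as deposited counts, so the main test was not a count model. The counting interval of Gjb2 and the voom alternative did use the recovered counts. The test was limma 3.58.1 (R 4.3.3) on log2(normalized count + 1) for protein-coding genes with a mean of at least 10, so fold changes are on that scale, with Benjamini-Hochberg adjustment over all 10527 genes and a threshold of 0.05. Genes with a mean of 1000 or more were not tested. Both steps were tested on simulated data. Lengths came from GENCODE M21 on the same build and matched 99.7% of protein-coding genes. RefSeq promoters were given for 6 of the 7 members. P-values set the difference between genotypes against the spread between libraries of the same genotype, and the litters of the embryos are not known.

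All 7 members are named. Other connexins and pannexins with a row are named; from the other lists, the lowest and highest by ratio of means (mean of at least 10), those past a threshold and those a comparison needs. Some genes that this rule names are not reported here. For each member with a mean of at least 50, the 2 genes of highest Pearson's r are named. The members and lists were chosen with earlier results of these data known. Alternatives were another pseudocount, voom, no filter, all gene types, rescaling, a stricter threshold, other lengths and leaving out each library.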

Additional observations from a re-analysis of the deposited data

Results flagged for a closer look

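Of 30 sets of 5 libraries, 1 per gene and genotype over the connexins and pannexins reported here with recovered counts, 3 had a library whose gap to the next was over 0.71 of the range. For normally distributed values this rule flags about 1 set in 20, but counts this low take few values. A set with only 1 library above 0 is always flagged, and all 3 were of this kind, so that rate does not apply to them. Gjd2, a neuronal connexin, was at 4.07 normalized counts in wild type library 3 and at 0 in the other wild type libraries; that library also held 139 counts of Sox10, whose part in the value was not tested. Gjd2 was at 1.01 in null library 2 and at 0 in the other null libraries. Gja10 was at 1.02 in wild type library 3, from 1 count, with 0 in the other wild type libraries.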

How the results depend on the processing

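No paired analysis was possible because the recovered libraries carry no replicate number of the labels. The number of members called was 0 in all 7 other settings and in the 10 fits that left out 1 library. Gja3 and Gja4 kept a negative log2 fold change in all of these, from -0.242 to -0.134 and from -0.119 to -0.0465 when 1 library was left out. Gjc1 ran from -0.08 to 0.0111, with 0.0068 without wild type library 2, 0.000261 without wild type library 5 and 0.0111 without null library 2. At most 0.01 other sets expected, a limit chosen after seeing the data, left Gjc1 without a test. The count of protein-coding genes called was 2 to 3 when 1 library was left out, 2 without null library 5, and 355 at an unadjusted p under 0.05, also added after seeing the data. With the longest protein-coding transcript as length, the wild type ratio per kilobase was 2.35 for Gja1 to Gja5, 1.7 for Gja5 to Gjc1 and 2.07 for Gjc1 to Gja4, from the length alone. Depth limits Gjb2 and Gjb6, and the abundance of Gja1 and Gja5 leaves them without a spread.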
